A study of Arabidopsis thaliana with 11 samples.

Results

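The genes described here are 75 Arabidopsis thaliana nuclear genes, known in the array annotation only by their locus numbers, whose transcripts measured moderately higher in inflorescences deficient in the NGATHA genes than in inflorescences labelled wild type. They were found among 17910 probe sets that reached a log2 value of 4 on at least 4 of 11 arrays, and among the 8749 of these that the annotation assigns to 1 gene named only by its locus. A gene was a member when the lowest of the 4 nga-deficient arrays lay above the highest of the 7 wild-type arrays and the difference of the means lay between 0.5 and 1.2 on the log2 scale. AT5G44630 was left out by the rule, and its lowest nga-deficient value (7.71) was also below its highest wild-type value (7.72). The members were thus chosen by the values of these same arrays, and their difference between nga-deficient and wild-type arrays is given throughout as a description, with no test.

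RNA from inflorescences with flowers of stage 12 and younger, of plants of the Ler ecotype 30 days after sowing (DAS), was hybridised to Affymetrix ATH1 arrays, on which each probe set reports 1 transcript or a few related ones as a GC-RMA log2 value. The nga-deficient arrays were 2 of ngaquad, a quadruple mutant that joins the alleles nga1-1 and nga2-1 with nga3-1 and nga4-1, and 2 of miR-NGA, plants with the transgene 35S:miR-NGA against nga1-4. Of the 7 arrays of Ler labelled wild type, the labels add a note of long days to replicates 2, 3 and 4, and give no day length for the others. The 35S promoter is active in most plant tissues, and neither the number of transgenic lines nor pooling of plants is given in the sources used here. Whether replicates came from separate plantings is not given either, so p-values reflect a spread among samples that may be technical only.

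NGA1, NGA2, NGA3 and NGA4 are related transcription factors with a plant-specific DNA-binding domain named B3, and they share overlapping roles in forming the style and stigma at the top of the gynoecium. Inflorescences that lack their activity form carpels without a normal style and stigma. An inflorescence sample also holds meristems, stems, sepals, petals and anthers, and in such bulk tissue more cells of a type and more RNA per cell cannot be told apart.

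The arrays labelled wild type were not uniform, and this touches every value below. NGA1 measured 6.95 and 6.50 on the ngaquad arrays and 5.02 and 4.88 on the miR-NGA arrays, against 5.60 to 5.99 on wild-type arrays 1 to 4 and 10.50 to 11.003 on wild-type arrays 5 to 7. NGA1 thus went against the labels on 4 controls, and wild type below means an array labelled wild type. For NGA3 and NGA4 every nga-deficient array lay below every wild-type array. NGA2 measured 4.68 and 4.77 on the ngaquad arrays and 5.34 and 5.47 on the miR-NGA arrays, against 5.19 to 5.52 on the 7 wild-type arrays. For NGA2 the ngaquad arrays thus lay below the controls and the miR-NGA arrays among them, so miR-NGA and nga-deficient below mean arrays with those labels. On ngaquad array 1 and wild-type arrays 1 and 2, 1 actin control (AFFX-r2-At-Actin) had a 3-prime value that exceeded its 5-prime value by 2.11, 2.05 and 2.10, and the other 8 arrays had 1.09 to 1.31. The other actin control set (AFFX-Athal-Actin) gave 4.17 on ngaquad array 1, which lay among the values of the other arrays, and 3.45 and 3.74 on wild-type arrays 1 and 2, which were the lowest. Green tissue markers (LHCB4.1, LHCB4.2 and RCA, 3 of 4 with a probe set of 1 gene) summed to 34.5 to 35.5 on nga-deficient arrays and 36.1 to 37.4 on wild-type arrays, so the groups did not overlap. Markers of tapetum and early anther (AMS, A9 and SPL, 3 of 5 with a probe set) summed to 24.2 to 26.5 and 25.7 to 27.1. Those of mature pollen (4 of 5) summed to 19.7 to 25.2 and 19.0 to 22.3. Floral identity (0 of 9) and seed storage markers (0 of 4) had no probe set that the annotation used here assigns to 1 gene. That annotation does not list 8730 probe sets, so the array may still measure these markers. The floral nature of the tissue was thus not checked with them. The part of these differences in the members' values was not tested.

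Over the 75 members the difference between nga-deficient and wild-type means ran from 0.51 to 1.16, with a median of 0.70, which corresponds to 1.42-fold to 2.24-fold with a median of 1.62-fold. The gap between the lowest nga-deficient and the highest wild-type array ran from 0.003 to 0.79, with a median of 0.13. It was under 0.1 for 30 members and over 0.3 for 10, so in many members the gap was smaller than the spread within the groups. The median SD of a member was 0.21 over the 4 nga-deficient arrays and 0.29 over the 7 wild-type arrays. In the limma comparison of nga-deficient with wild-type arrays, 1.33% of all kept probe sets were called higher at an adjusted p under 0.05, 3.06% did not overlap in that direction, and 1.08% also met the limits of the rule. Of the members 46 passed the same threshold, a count that the rule itself favours and from which nothing is read. All 75 loci were matched in a RefSeq gene table (TAIR10.1). The array annotation, which does not list 8730 probe sets, gave no member a second probe set of 1 gene. Of the members 70 reached a log2 value of 4 on all 11 arrays, and 1, AT2G30650, passed the filter with fewer than 4 wild-type arrays at that value.

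The size of these differences changed with the arrays used. Without ngaquad array 1 and wild-type arrays 1 and 2, the differences ran from 0.27 to 1.14 with a median of 0.54, 68 members had a smaller difference than over all arrays, and 30 lay below 0.5, with 45 at or above it. Applied to the other 8 arrays, the rule found 74 genes, of which 45 were among the 75. Against wild-type arrays 1 to 4 alone the median was 0.79, and against wild-type arrays 5 to 7 alone it was 0.58, with 47 members at 0.5 or more. The difference changed by over 1.5 times in 18 members without the 3 arrays and in 11 members against wild-type arrays 5 to 7 alone, and those values are given with the genes below.

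**Figure D1:**
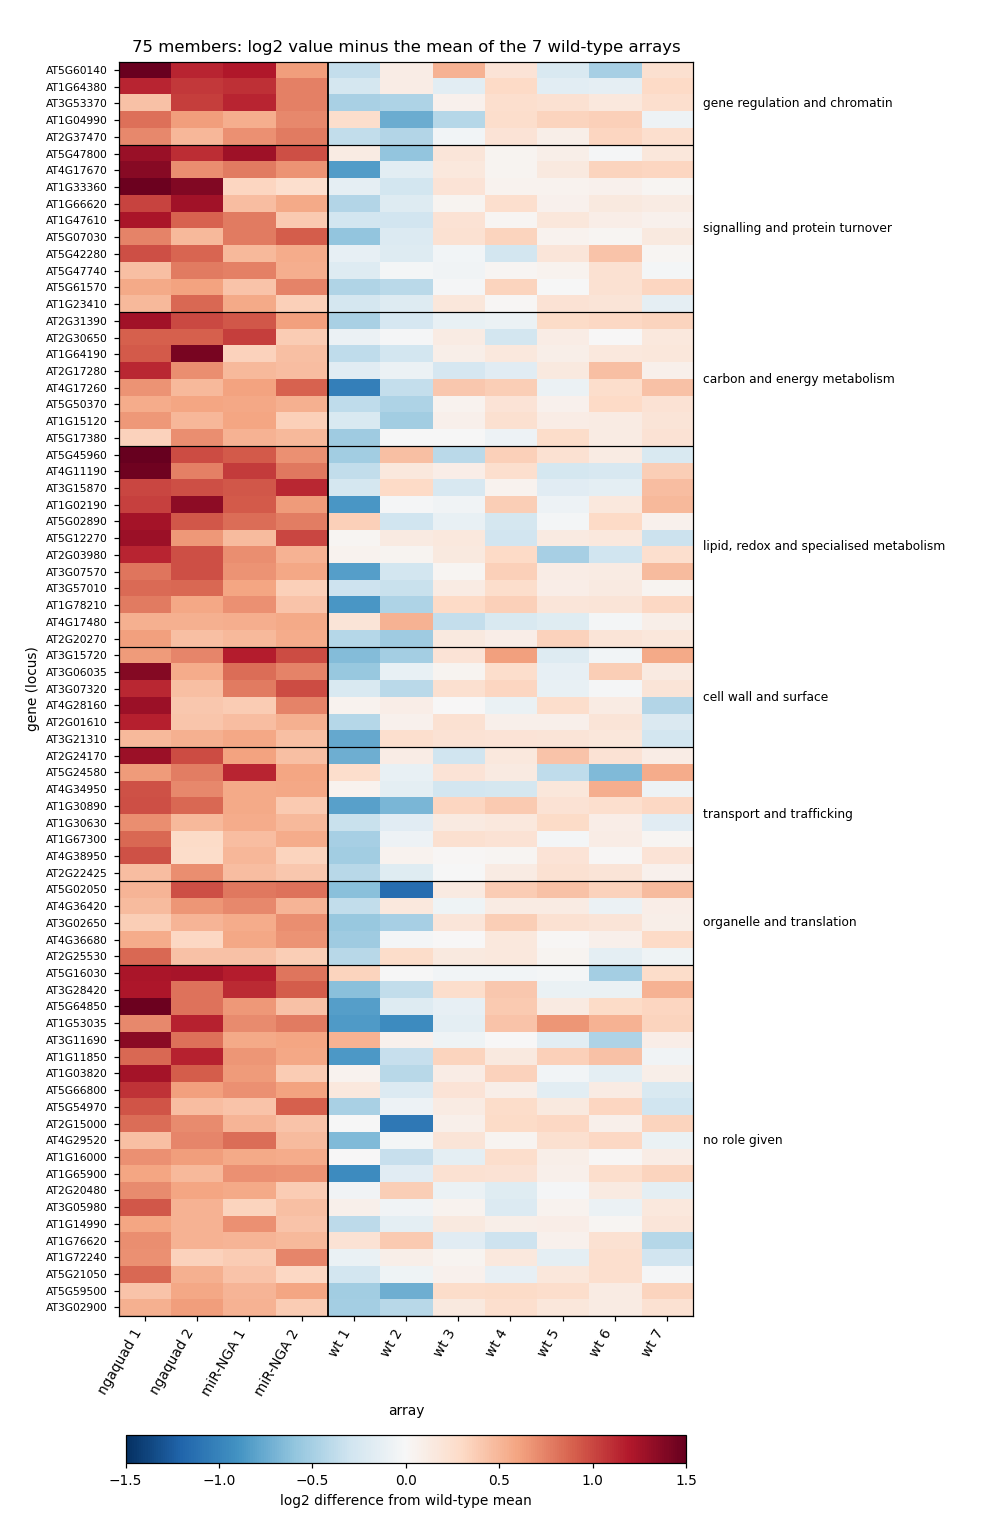
Log2 value of each of the 75 members (rows, grouped by class) minus its mean over the 7 wild-type arrays, on each of the 11 arrays (columns, nga-deficient arrays left of the line), with red for higher and blue for lower. All nga-deficient cells are red by the rule that chose the genes, and wild-type arrays 1 and 2 hold most of the blue.

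The members were sorted into 8 classes by their gene family, as general knowledge of Arabidopsis proteins gives it, since the tables used here hold no description of function. This sorting was made after the values were seen, and a family names a kind of protein, not a role tested in these plants. For 21 members no role could be given.

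Gene regulation and chromatin took in 5 members, with differences from 0.67 to 1.11 and a median of 0.84. The median was 0.79 without the 3 arrays. AT5G60140 encodes a B3-domain DNA-binding protein, and so belongs to the same broad superfamily as the NGATHA factors themselves. It measured 7.28 and 6.95 on the ngaquad arrays and 7.01 and 6.44 on the miR-NGA arrays, against 5.31, 5.92 and 6.33 as the lowest, median and highest of the 7 wild-type arrays. Its means were 6.92 ± 0.35 (SD, n = 4) on nga-deficient arrays and 5.81 ± 0.37 (SD, n = 7) on wild-type arrays, a 2.16-fold difference. The lowest nga-deficient array, miR-NGA array 2, exceeded the highest wild-type array by only 0.11. AT1G64380, an AP2/ERF-domain transcription factor of the family that includes ethylene response factors, measured 5.29 and 5.20 on the ngaquad arrays and 5.24 and 4.90 on the miR-NGA arrays, against 3.89, 4.01 and 4.45 as the lowest, median and highest of the 7 wild-type arrays. The groups were separated by 0.45, a wider gap than in the other 4 regulators, and the means differed 2.02-fold. Its wild-type values were dim, between 3.89 and 4.45, so the size of its difference is less certain.

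The 3 other regulators showed smaller differences. AT3G53370, an S1FA-like small DNA-binding protein, measured 5.96 and 6.57 on the ngaquad arrays and 6.67 and 6.28 on the miR-NGA arrays, against 5.04, 5.69 and 5.78 as the lowest, median and highest of the 7 wild-type arrays. Here ngaquad array 1 was the lowest of the 4 nga-deficient arrays. AT1G04990, a zinc finger protein of the CCCH type, many of which bind RNA, had a difference of 0.68, and AT2G37470, a core histone of the H2B type that packs DNA into nucleosomes, had a difference of 0.67. Both had gaps of 0.18 between the groups, and the histone's difference was 0.45 against wild-type arrays 5 to 7 alone.

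Signalling and protein turnover had 10 members, with differences from 0.57 to 1.16 and a median of 0.77 (0.57 without the 3 arrays). AT5G47800 showed the largest difference and the widest gap of all 75. It encodes an NPH3-type protein, of the plant family that includes adaptors between phototropin blue-light receptors and ubiquitin ligases. It measured 6.21 and 6.03 on the ngaquad arrays and 6.19 and 5.88 on the miR-NGA arrays, against 4.32, 5.001 and 5.10 as the lowest, median and highest of the 7 wild-type arrays. Its means were 6.08 ± 0.15 (SD, n = 4) on nga-deficient arrays and 4.91 ± 0.27 (SD, n = 7) on wild-type arrays, a 2.24-fold difference. The lowest nga-deficient array exceeded the highest wild-type array by 0.79, and wild-type array 2 lay well below the other controls. Without the 3 arrays its difference was 1.02, and against wild-type arrays 5 to 7 alone it was 1.08.

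AT4G17670, a protein with an FLZ zinc finger, a domain of plant proteins that bind the SnRK1 energy-sensing kinase, measured 7.06 and 6.40 on the ngaquad arrays and 6.49 and 6.37 on the miR-NGA arrays, against 4.86, 5.84 and 6.04 as the lowest, median and highest of the 7 wild-type arrays. Both the highest nga-deficient array, ngaquad 1, and the lowest wild-type array, wild-type 1, stood far from the rest, and the difference of 0.88 became 0.52 without the 3 arrays. AT1G66620, a SINA-like ubiquitin ligase that marks proteins for degradation, measured 6.78 and 7.02 on the ngaquad arrays and 6.22 and 6.33 on the miR-NGA arrays, against 5.32, 5.83 and 6.02 as the lowest, median and highest of the 7 wild-type arrays. Both ngaquad arrays were above both miR-NGA arrays. AT5G47740, a nucleotide-binding protein of the universal stress type, measured 4.71 and 5.03 on the ngaquad arrays and 5.01 and 4.80 on the miR-NGA arrays, against 4.06, 4.22 and 4.48 as the lowest, median and highest of the 7 wild-type arrays, with ngaquad array 1 the lowest of the 4.

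The other members of this class were a WD40-repeat protein, a protease, a kinase and proteins of less certain function. AT5G07030, an aspartyl protease, averaged 11.52 ± 0.18 (SD, n = 4) on nga-deficient arrays and 10.79 ± 0.31 (SD, n = 7) on wild-type arrays. AT1G47610, a WD40-repeat protein of the kind that holds protein complexes together, differed by 0.82, and AT1G23410, a ubiquitin fused to a ribosomal protein, by 0.57. Ubiquitin fusions occur in several near-identical copies, so part of that signal could come from a relative. AT5G61570, a protein kinase, and AT5G42280, a C1-domain protein rich in cysteine and histidine, differed by 0.58 and 0.72, with gaps of 0.10 and 0.06. AT1G33360 is described with the comparison of the genotypes.

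Carbon and energy metabolism held 8 members, with differences from 0.51 to 0.95 and a median of 0.68 (0.48 without the 3 arrays, and 0.46 against wild-type arrays 5 to 7 alone). AT2G31390, a fructokinase-type enzyme that phosphorylates fructose for entry into glycolysis or starch synthesis, measured 9.47 and 9.20 on the ngaquad arrays and 9.13 and 8.82 on the miR-NGA arrays, against 7.72, 8.11 and 8.54 as the lowest, median and highest of the 7 wild-type arrays. The wild-type arrays themselves split here, with arrays 5, 6 and 7 at 8.49 to 8.54 and arrays 1 to 4 at 7.72 to 8.11. Its difference of 0.95 over all arrays was 0.64 against arrays 5 to 7 alone. AT1G64190, a 6-phosphogluconate dehydrogenase, which supplies NADPH through the oxidative pentose phosphate pathway, measured 8.49 and 8.99 on the ngaquad arrays and 7.91 and 8.01 on the miR-NGA arrays, against 7.18, 7.65 and 7.74 as the lowest, median and highest of the 7 wild-type arrays. The ngaquad arrays carried most of this difference, and the miR-NGA arrays stood 0.18 or more above the highest wild-type value.

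AT2G30650, a crotonase-type enzyme of the family that acts on coenzyme A esters, measured 4.58 and 4.57 on the ngaquad arrays and 4.71 and 4.06 on the miR-NGA arrays, against 3.40, 3.68 and 3.83 as the lowest, median and highest of the 7 wild-type arrays. These wild-type values lay near the floor of the data, so the size of the difference of 0.80 is less certain. AT5G50370, an adenylate kinase that balances the adenine nucleotides, measured 8.82 and 8.86 on the ngaquad arrays and 8.85 and 8.80 on the miR-NGA arrays, against 7.80, 8.34 and 8.57 as the lowest, median and highest of the 7 wild-type arrays. Its 4 nga-deficient values lay close together, while its difference against wild-type arrays 5 to 7 was 0.37. AT1G15120, the hinge protein of the mitochondrial cytochrome bc complex, differed by 0.53, and by 0.33 without the 3 arrays. AT5G17380, an enzyme that uses thiamine diphosphate, differed by 0.51, and by 0.31 against wild-type arrays 5 to 7. AT4G17260, a lactate dehydrogenase of fermentation, differed by 0.66, and by 0.38 without the 3 arrays. AT2G17280, a phosphoglycerate-mutase-type protein, differed by 0.69 with a gap of 0.01.

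Lipid, redox and specialised metabolism was the largest class with a role, with 12 members, differences from 0.53 to 1.03 and a median of 0.84. The median was 0.74 without the 3 arrays and 0.81 against wild-type arrays 5 to 7 alone. AT3G15870, a fatty acid desaturase, which introduces double bonds into acyl chains, measured 5.47 and 5.44 on the ngaquad arrays and 5.41 and 5.60 on the miR-NGA arrays, against 4.21, 4.32 and 4.94 as the lowest, median and highest of the 7 wild-type arrays. The 4 nga-deficient values were close to each other in both genotypes, and the gap of 0.47 was the widest of the class. Its difference was 1.01 over all arrays and 1.02 without the 3 arrays. AT5G45960, a GDSL-type lipase of a large family of secreted esterases, measured 8.95 and 8.38 on the ngaquad arrays and 8.32 and 8.10 on the miR-NGA arrays, against 6.89, 7.53 and 7.85 as the lowest, median and highest of the 7 wild-type arrays, a 2.04-fold difference of means. The wild-type arrays spread over almost a full log2 unit in this gene, and the miR-NGA arrays lay close above that spread.

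AT5G02890, an acyltransferase of the HXXXD type, a family that acts in specialised metabolism and surface lipid formation, measured 7.90 and 7.58 on the ngaquad arrays and 7.48 and 7.42 on the miR-NGA arrays, against 6.35, 6.62 and 7.01 as the lowest, median and highest of the 7 wild-type arrays. AT4G11190, a dirigent protein, of the family that steers the coupling of lignan precursors, measured 6.36 and 5.65 on the ngaquad arrays and 5.96 and 5.70 on the miR-NGA arrays, against 4.53, 5.0001 and 5.27 as the lowest, median and highest of the 7 wild-type arrays. Both had their highest value on ngaquad array 1, and their gaps were 0.41 and 0.38. AT5G12270, an oxygenase that depends on oxoglutarate, measured 5.85 and 5.22 on the ngaquad arrays and 5.04 and 5.58 on the miR-NGA arrays, against 4.26, 4.70 and 4.73 as the lowest, median and highest of the 7 wild-type arrays. AT2G03980, a second GDSL-type lipase, measured 6.36 and 6.18 on the ngaquad arrays and 5.92 and 5.74 on the miR-NGA arrays, against 4.72, 5.27 and 5.52 as the lowest, median and highest of the 7 wild-type arrays. In AT2G03980 the ngaquad arrays were higher than the miR-NGA arrays, and wild-type arrays 5 and 6 were the lowest of the controls.

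The other 6 members of the class had gaps of 0.15 or less. AT1G02190, a CER1-like protein of the family that forms alkanes for the cuticle, averaged 10.29 ± 0.29 (SD, n = 4) on nga-deficient arrays and 9.31 ± 0.44 (SD, n = 7) on wild-type arrays, with wild-type array 1 as the lowest by a wide margin. AT3G07570, a transmembrane protein of the cytochrome b type, differed by 0.75, AT3G57010, a strictosidine-synthase-like protein, by 0.66, and AT4G17480, a thioesterase-like hydrolase, by 0.54 with a gap of 0.01. AT2G20270, a monothiol glutaredoxin that acts in redox control, differed by 0.53, by 0.30 without the 3 arrays and by 0.29 against wild-type arrays 5 to 7. AT1G78210, an alpha/beta hydrolase, differed by 0.62, by 0.30 without the 3 arrays and by 0.39 against wild-type arrays 5 to 7.

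Cell wall and surface proteins numbered 6, with differences from 0.51 to 0.88 and a median of 0.77 (0.56 without the 3 arrays). AT3G06035, a glycoprotein held at the cell surface by a GPI anchor, measured 9.92 and 9.11 on the ngaquad arrays and 9.39 and 9.29 on the miR-NGA arrays, against 7.98, 8.59 and 8.92 as the lowest, median and highest of the 7 wild-type arrays. Its ngaquad array 1 stood apart, and the difference of 0.88 became 0.58 without the 3 arrays. AT3G07320, a glycosyl hydrolase of the glucanase type, which cuts wall glucans, measured 9.45 and 8.77 on the ngaquad arrays and 9.10 and 9.29 on the miR-NGA arrays, against 7.91, 8.30 and 8.64 as the lowest, median and highest of the 7 wild-type arrays. AT3G15720, a polygalacturonase-type pectinase that loosens pectin, measured 4.93 and 5.03 on the ngaquad arrays and 5.47 and 5.28 on the miR-NGA arrays, against 3.64, 4.26 and 4.91 as the lowest, median and highest of the 7 wild-type arrays. In AT3G15720 the miR-NGA arrays were above the ngaquad arrays, the reverse of most members, and the gap to the highest control was 0.02.

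AT2G01610, an inhibitor of invertase or of pectin methylesterase, measured 8.49 and 7.73 on the ngaquad arrays and 7.79 and 7.85 on the miR-NGA arrays, against 6.89, 7.39 and 7.55 as the lowest, median and highest of the 7 wild-type arrays. Its value on ngaquad array 1 stood well above those of the other 3 nga-deficient arrays, and its difference of 0.64 became 0.40 without the 3 arrays. AT3G21310, a glycosyltransferase of the core-2/I-branching type, differed by 0.51 and had nga-deficient values between 7.03 and 7.16. AT4G28160, a hydroxyproline-rich glycoprotein of the kind that makes up part of the wall, differed by 0.70.

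**Figure D2:**
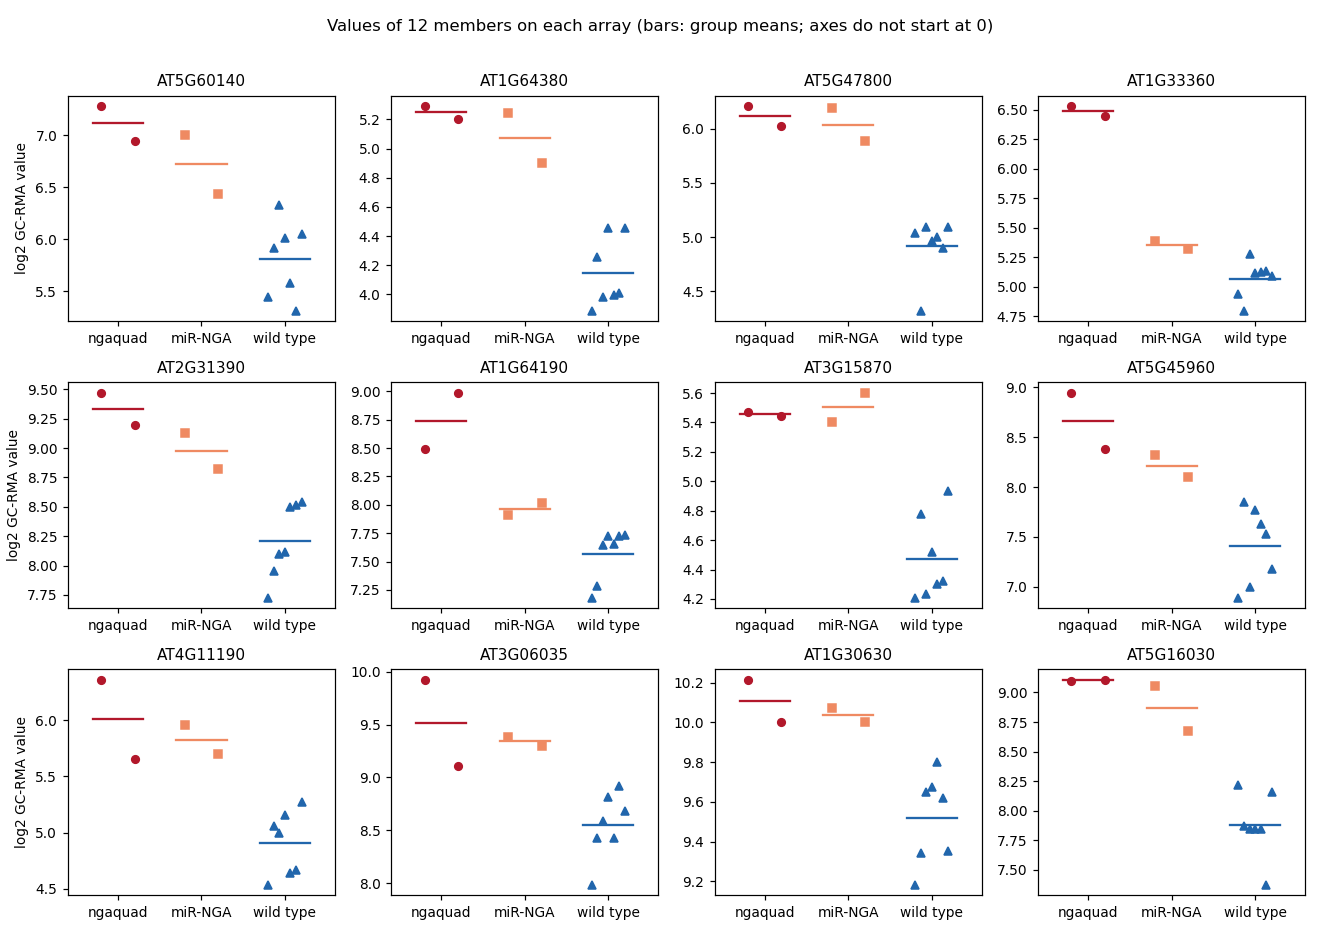
Log2 GC-RMA value of 12 named members on each array, with 1 point an array and a bar at the mean of each group (2 ngaquad, 2 miR-NGA and 7 wild-type arrays), where the vertical axes differ and do not start at 0. AT5G47800 shows the widest gap (0.79), and in AT1G33360 the miR-NGA arrays (5.39 and 5.32) lie just above the wild-type arrays while ngaquad lies at 6.53 and 6.45.

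Transport and trafficking had 8 members, with differences from 0.51 to 0.83 and a median of 0.63. Without the 3 arrays that median was 0.41, and against wild-type arrays 5 to 7 alone it was 0.49. In each of those settings 5 of the 8 lay below 0.5, as did 5 of 8 in carbon and energy metabolism. AT1G30630, a subunit of the coatomer that coats vesicles between Golgi and endoplasmic reticulum, measured 10.21 and 10.001 on the ngaquad arrays and 10.07 and 10.003 on the miR-NGA arrays, against 9.18, 9.62 and 9.80 as the lowest, median and highest of the 7 wild-type arrays. AT2G22425, a subunit of the signal peptidase complex, which trims secreted proteins, measured 10.003 and 10.24 on the ngaquad arrays and 10.004 and 9.95 on the miR-NGA arrays, against 9.13, 9.60 and 9.76 as the lowest, median and highest of the 7 wild-type arrays. The gaps of these 2 genes were 0.20 and 0.19.

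AT5G24580, a protein with a heavy-metal-associated domain, measured 8.48 and 8.60 on the ngaquad arrays and 8.98 and 8.43 on the miR-NGA arrays, against 7.17, 7.97 and 8.39 as the lowest, median and highest of the 7 wild-type arrays. Its wild-type arrays spread widely, with array 6 the lowest, and its difference was 0.79 over all arrays and 0.87 without the 3 arrays. AT2G24170, an endomembrane protein of the EMP70 type, differed by 0.83, with a gap of 0.02, and AT4G34950, a transporter of the major facilitator type, by 0.71. AT1G30890, a Golgi membrane protein of the Yif1 type, differed by 0.70, by 0.31 without the 3 arrays and by 0.44 against wild-type arrays 5 to 7. AT4G38950, a kinesin motor, differed by 0.51, and by 0.27 without them. AT1G67300, a major facilitator of the sugar-transporter type, differed by 0.54, and by 0.32 without them.

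Organelle and translation genes numbered 5, with differences from 0.53 to 0.77 and a median of 0.53, the lowest median of the 8 classes, and 0.41 without the 3 arrays. AT4G36420, an organellar-type ribosomal protein of the L7/L12 kind, measured 7.18 and 7.36 on the ngaquad arrays and 7.42 and 7.21 on the miR-NGA arrays, against 6.33, 6.80 and 6.85 as the lowest, median and highest of the 7 wild-type arrays. Its gap of 0.32 exceeded those of the other 4, which were 0.08 or less. AT5G02050, a mitochondrial matrix glycoprotein, measured 8.61 and 9.07 on the ngaquad arrays and 8.90 and 8.91 on the miR-NGA arrays, against 6.95, 8.44 and 8.58 as the lowest, median and highest of the 7 wild-type arrays. Wild-type arrays 1 and 2 were far below the other controls in AT5G02050, and its difference of 0.77 became 0.50 without the 3 arrays and 0.35 against wild-type arrays 5 to 7. AT2G25530, an AFG1-like ATPase, AT4G36680, a pentatricopeptide-repeat protein of the family that processes organellar RNA, and AT3G02650, a helical-repeat protein, differed by 0.53, 0.53 and 0.53.

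The 21 members without a role that could be given differed by 0.52 to 1.11, with a median of 0.62 (0.52 without the 3 arrays). The widest gap of the class, 0.46, was that of AT5G16030. It measured 9.10 and 9.11 on the ngaquad arrays and 9.06 and 8.67 on the miR-NGA arrays, against 7.37, 7.84 and 8.22 as the lowest, median and highest of the 7 wild-type arrays. Its means were 8.98 ± 0.21 (SD, n = 4) on nga-deficient arrays and 7.88 ± 0.27 (SD, n = 7) on wild-type arrays, a 2.15-fold difference, and miR-NGA array 2 was the lowest of the 4. Without the 3 arrays the difference was 1.14. AT5G66800 measured 6.93 and 6.46 on the ngaquad arrays and 6.53 and 6.45 on the miR-NGA arrays, against 5.62, 5.94 and 6.06 as the lowest, median and highest of the 7 wild-type arrays, and AT3G28420 measured 5.75 and 5.35 on the ngaquad arrays and 5.66 and 5.45 on the miR-NGA arrays, against 3.91, 4.44 and 5.06 as the lowest, median and highest of the 7 wild-type arrays. The gaps of these genes were 0.40 and 0.30.

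AT1G16000, AT1G14990 and AT3G05980 completed the 6 of this class with the widest gaps, with differences of 0.61, 0.56 and 0.56. The 15 others were AT1G65900, AT1G11850, AT4G29520, AT3G02900, AT5G54970, AT5G59500, AT1G76620, AT2G15000, AT1G72240, AT5G21050, AT1G53035, AT5G64850, AT3G11690, AT1G03820 and AT2G20480, with differences of 0.52 to 0.84 and gaps of 0.15 or less. Without the 3 arrays, AT5G59500 differed by 0.31, AT3G02900 by 0.33, AT2G15000 by 0.34, AT5G21050 by 0.35, AT1G65900 by 0.39, AT5G64850 by 0.43 and AT1G53035 by 0.52, each over 1.5 times less than with all arrays. Against wild-type arrays 5 to 7 alone, AT5G59500 differed by 0.29, AT1G53035 by 0.33, AT3G02900 by 0.34, AT2G15000 by 0.38 and AT1G65900 by 0.39. With all 11 arrays the difference of AT1G53035 was 0.84.

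The limits of the rule cut through a continuous range. Just inside the lower limit of 0.5 lay AT2G22425 (0.51), AT3G21310 (0.51), AT5G17380 (0.51) and AT4G38950 (0.51). Just outside it lay AT4G21105 (0.499), AT2G30060 (0.49), AT1G30690 (0.49) and AT5G08300 (0.48), which separated the groups as fully. At the upper limit of 1.2, AT5G45960 (1.03), AT5G16030 (1.11), AT5G60140 (1.11) and AT5G47800 (1.16) lay inside, and AT2G34810 (1.201), AT1G62480 (1.21), AT3G13650 (1.23) and AT3G05610 (1.29) outside. In all, 155 genes that separated the groups fell short of 0.5 and 10 exceeded 1.2.

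The comparison of ngaquad with miR-NGA asked whether arrays with these 2 labels differed in the levels of these transcripts. The rule did not use this comparison, but it was applied to the same nga-deficient arrays. How far it shaped the counts below was not tested, so they are given as a description. NGA1 and NGA2 themselves differed between the 2 labels, as given above, so an equal loss of NGATHA activity was not shown. In most members the ngaquad mean was the higher, but 1 of 75 passed the test, and the excess was smaller without either of 2 arrays. The ngaquad mean exceeded the miR-NGA mean in 54 members (72.0%), against 41.8% of all kept probe sets, and the median difference was 0.18, against -0.05 over all kept probe sets. Both ngaquad arrays lay above both miR-NGA arrays in 29 members (38.7%), against 18.0% of all kept probe sets, and both miR-NGA arrays above both ngaquad arrays in 6 members, against 28.7%. Without ngaquad array 1 the members' median was 0.07, against -0.02 over all kept probe sets, and without miR-NGA array 2, the lowest nga-deficient array for 37 members, it was 0.11, against -0.04.

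AT1G33360 was the member that passed, among 24 of 17910 probe sets (0.134%) called in this comparison. It encodes a ClpX-type chaperone subunit, which unfolds proteins for the Clp protease of organelles. It measured 6.53 and 6.45 on the ngaquad arrays and 5.39 and 5.32 on the miR-NGA arrays, against 4.79, 5.12 and 5.28 as the lowest, median and highest of the 7 wild-type arrays. The difference of ngaquad minus miR-NGA was 1.14 (SE 0.17, limma adjusted p = 0.0167), and both ngaquad arrays lay above both miR-NGA arrays. Its miR-NGA values exceeded the highest wild-type value by as little as 0.04. The call ended without ngaquad array 1 and without miR-NGA array 1 or 2, fits that leave 1 array in a group. It also ended with wild-type arrays 1 to 4 alone as controls (limma adjusted p = 0.176). The same held with the 4 arrays of the genotypes alone (0.291) and with the replicate number as a block (0.313). The choice of controls cannot change the size of this difference. Leaving out a ngaquad or miR-NGA array gave differences between 1.10 and 1.18. Over all 20 alternatives the limma adjusted p ran from 0.00430 to 0.329.

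At an unadjusted p under 0.05, which 7.21% of all kept probe sets reached, 3 more members differed between the genotypes, all higher in ngaquad. AT1G64190, the phosphogluconate dehydrogenase, had a difference of 0.77 (SE 0.23, limma adjusted p = 0.612), AT1G66620, the ubiquitin ligase, one of 0.62 (SE 0.22, adjusted p = 0.634), and AT1G03820 one of 0.57 (SE 0.23, adjusted p = 0.662). None passed after adjustment over all kept probe sets. AT1G64190 passed without the 3 arrays of high actin difference (difference 1.02, limma adjusted p = 0.0276), a fit that rests on ngaquad array 2 alone and assumes that it varies like the other groups. For the other members the test does not show that the genotypes were alike.

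By class the split was as follows, as a description. The ngaquad mean was above the miR-NGA mean in 10 of 12 members of lipid, redox and specialised metabolism, with a median difference of 0.24, and in 7 of 8 members each of carbon and energy metabolism (median 0.15) and of transport and trafficking (median 0.17). It was above in 7 of 10 members of signalling and protein turnover (median 0.26), 16 of 21 without a role (median 0.17), 3 of 5 of gene regulation (median 0.09) and 3 of 6 of cell wall and surface (median 0.08). In organelle and translation it was above in 1 of 5, with a median of -0.07.

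**Figure D3:**
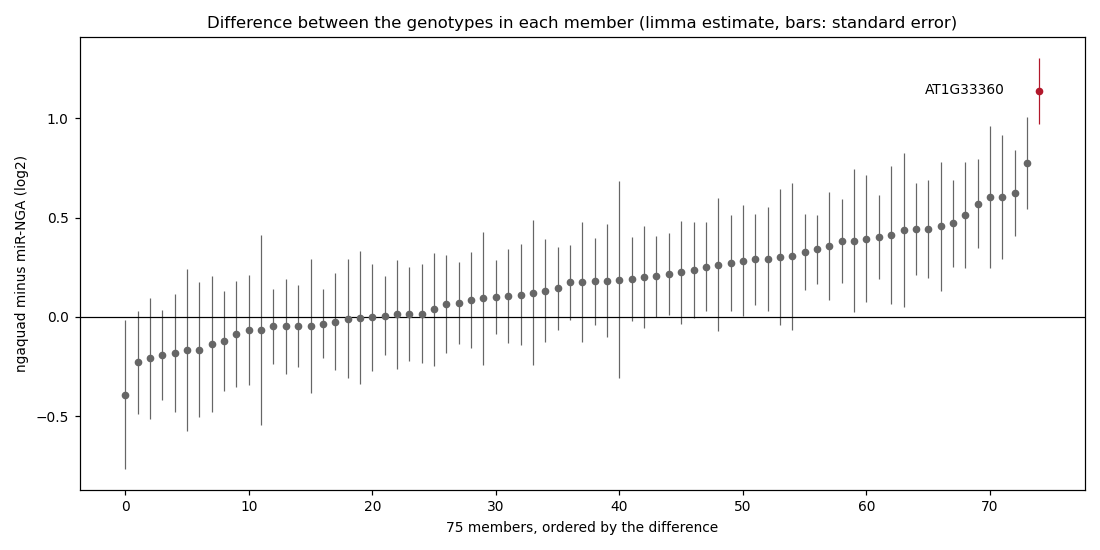
Difference of ngaquad minus miR-NGA on the log2 scale for each of the 75 members, ordered by size, with bars for the standard error of the 3-group limma fit (2 ngaquad, 2 miR-NGA and 7 wild-type arrays). In 54 members the ngaquad mean was higher, and AT1G33360 (1.14), in red, was the member called.

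Each genotype was also set against the 7 wild-type arrays, as part of the contrast that chose the members and therefore without a reading. Of the members 33 were called higher in ngaquad, against 1.94% of all kept probe sets, and 4 in miR-NGA, against 0.117%. These 4 were AT5G16030, AT5G47800, AT3G15870 and AT1G64380. Both comparisons share the same controls.

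Genes that met the same criteria under another kind of name were compared with the members. There were 15 with a symbol, of which 6 had a higher mean in ngaquad than in miR-NGA (median difference -0.06), and 99 probe sets that the annotation does not list, of which 69 did (median 0.17). Among 175 locus-named genes that met the mirrored criteria, lower on the nga-deficient arrays, 63 were higher in ngaquad than in miR-NGA (median -0.08). The difference of these groups from the members was not tested.

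Across arrays, the members' mean shift from the wild-type mean was 0.89 and 0.74 on ngaquad arrays 1 and 2 and 0.67 and 0.60 on miR-NGA arrays 1 and 2. On wild-type arrays 1 and 2 it was -0.34 and -0.19, and on arrays 3 to 7 between 0.06 and 0.14. The members' shifts on the controls thus split into 2 low arrays and 5 similar ones, while the mean of all kept probe sets shifted by -0.05 to 0.03 on every array. ngaquad array 1 was the highest of the nga-deficient arrays for 41 members (54.7%), against 28.6% of all kept probe sets. Wild-type array 1 was the lowest control for 41 members and array 2 for 17, together 77.3%, against 50.1% of all kept probe sets. Both lay below the other 5 controls in 36 members (48.0%), against 24.8% of all kept probe sets. That share was 53.3% in the 15 genes with a symbol and 49.5% in the 99 unlisted probe sets that met the same criteria. In the 175 genes of the mirrored criteria it was 0.57%. The rule used these same values and favours low controls and high nga-deficient arrays, so nothing about the members is read from these shares. ngaquad array 1 and wild-type arrays 1 and 2 are the 3 arrays with the high actin difference, and the part of that difference in the members' values was not tested.

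**Figure D4:**
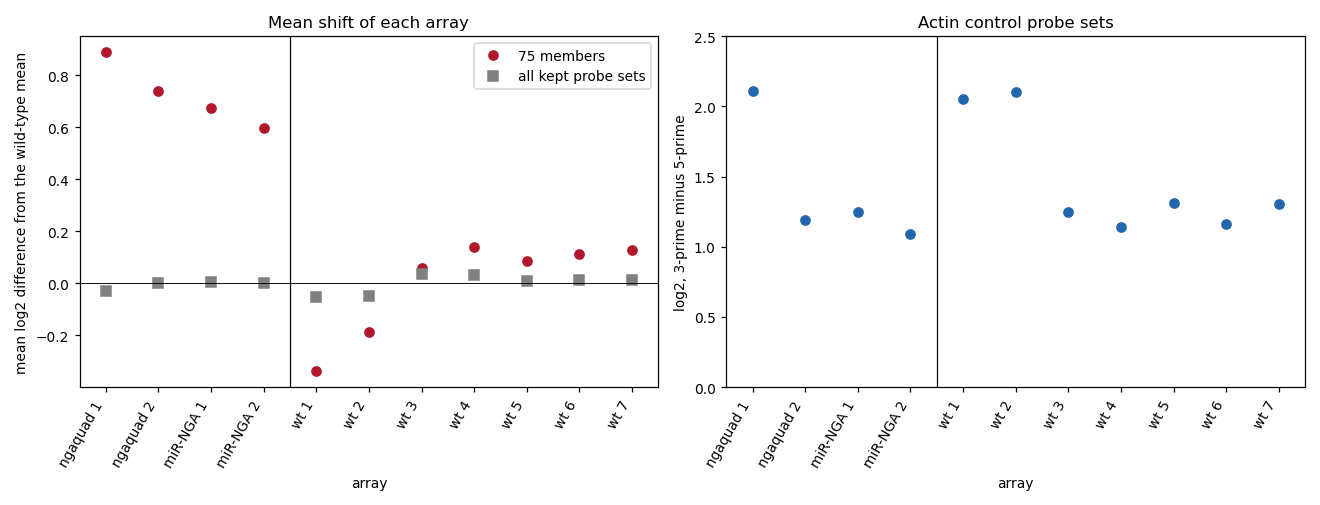
Left, mean log2 difference from the wild-type mean on each array for the 75 members (red circles) and all kept probe sets (grey squares), and right, the 3-prime minus 5-prime value of the AFFX-r2-At-Actin control on the same arrays. Members lie at 0.60 to 0.89 on nga-deficient arrays and at -0.34 and -0.19 on wild-type arrays 1 and 2, and the actin value is above 2 on ngaquad array 1 and on wild-type arrays 1 and 2.

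The long-days note was examined within the 7 wild-type arrays, 3 with the note and 4 without. No member was called, and 0 of all kept probe sets were (0.0%, limma adjusted p under 0.05), while 289 (1.61%) had an unadjusted p under 0.05. The members at that level were AT5G60140 (0.49) and AT2G25530 (0.34), with higher means under the note, and AT5G02890 (-0.40) and AT4G34950 (-0.40), with lower ones, each with a limma adjusted p of 0.9998. The median over the members was 0.02.

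In the genome the members were spread over all 5 chromosomes, with 21 on chromosome 1, 12 on chromosome 2, 13 on chromosome 3, 10 on chromosome 4 and 19 on chromosome 5. The shares of all kept locus-named probe sets on chromosomes 1 to 5 were 26.5%, 15.1%, 20.6%, 14.2% and 23.8%. The closest pair of members in gene order was AT5G47740 and AT5G47800, 6 genes apart. Of 64 kept probe sets of 1 gene directly next to a member none was a member, 2 were called higher and 1 lower (limma adjusted p under 0.05). Of all 17910 kept probe sets, 239 (1.33%) were called higher and 553 lower. The median difference of the neighbours was 0.02, against -0.02 over all kept probe sets, and their calls are given as a description. The higher neighbours were AT1G23420 (INO, a regulator of the outer integument of the ovule), next to AT1G23410, with a difference of 0.86 (limma adjusted p = 0.00595), and AT2G30630, next to AT2G30650, with 1.205 (adjusted p = 0.0291). AT3G07310, next to AT3G07320, was the lower one, with -0.95 (adjusted p = 0.0199).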

How the data were processed

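The deposited values are log2 expression values from 11 arrays, which the authors made with GC-RMA in R 2.7.2 (per the submitters' processing notes) and Bioconductor 2.2 (per the design text). No other setting is given in the sources used here. GC-RMA subtracts a background predicted from probe sequence and normalizes the arrays to each other. The size of a difference is less certain for dim transcripts. The table had 22810 rows. Controls (64) were dropped, and of 22746 probe sets those with a log2 value of 4 or more on at least 4 arrays were kept. The platform annotation gave 1 gene for 13513 probe sets, several for 503, and it did not list 8730. Names were checked in a RefSeq gene table (TAIR10.1), used only for names and gene order, since the build of the files is not named.

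Tests used lmFit and eBayes of limma 3.58.1 in R 4.3.3 and were two-sided, with Benjamini-Hochberg adjustment over 17910 probe sets and a threshold of 0.05. nga-deficient against wild type was fitted with 2 groups, and ngaquad against miR-NGA with 3 groups over all 11 arrays, because 2 arrays a genotype give little information on spread. Fold changes are 2 to the power of the difference of log2 means. The fits were tried on simulated data whose arrays varied independently. The arrays here had shared shifts, so nothing about these results is read from that trial. The number of arrays limits the precision.

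The members and lists were chosen with earlier results of these data known. The planned search of gene descriptions for classes could not be made, since the tables hold none, so the classes were set by hand from general knowledge after the values were seen. Named with values were up to 6 members a class with the widest gap between the groups, those called between the genotypes, and those at the limits of the rule. Other members named with values, and the 12 plotted, were chosen after their values were seen. Of the 2 actin control sets, the one that sets 3 arrays apart was taken for an alternative after the values were seen. Alternatives covered the filter, centring each array on its median, eBayes settings, a replicate block, the long-days note, fewer arrays in a fit, and each array left out in turn. Promoters and proteins of the members were not analysed here.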

Additional observations from a re-analysis of the deposited data

Results flagged for a closer look

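In 150 groups of values (75 members in 2 groups of arrays each), 16 had 1 array far from the others by Dixon's criterion. Chance flags about 1 in 20, but the share over all kept probe sets is not given here. The rule chose the members by these same values, so nothing is read from the count. Among the nga-deficient arrays, ngaquad array 1 was far above the others in 5 members, with log2 values of 6.14 for AT1G76620, 8.49 for AT2G01610, 7.23 for AT2G25530, 7.06 for AT4G17670 and 6.93 for AT5G66800. ngaquad array 2 was far above the others for AT1G53035 (6.93), and miR-NGA array 2 far below them for AT5G16030 (8.67). Among the controls, wild-type array 1 was far below the others in 7 members, with 8.44 for AT1G02190, 6.47 for AT1G65900, 6.89 for AT1G67300, 4.86 for AT4G17670, 6.96 for AT4G29520, 5.60 for AT4G36680 and 5.51 for AT4G38950. Wild-type array 2 was far below the others for AT2G15000 (6.32) and AT5G47800 (4.32). Of these, 5, 7 and 2 lie on ngaquad array 1 and wild-type arrays 1 and 2, the 3 arrays with the high actin difference, whose part in them was not tested.

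The difference between the genotypes in AT1G33360, ngaquad minus miR-NGA 1.14 on the log2 scale, passed the limma test of that difference, and 6 of 20 alternatives ended the call.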

How the results depend on the processing

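Over the alternatives run for each, AT1G33360 and the members' medians between nga-deficient and wild-type arrays and between the genotypes kept their direction. By the rule, leaving out arrays could not reverse the median between nga-deficient and wild-type arrays. Nor could it reverse AT1G33360, in which both ngaquad arrays lay above both miR-NGA arrays. Nothing is read from these 2 directions. Called probe sets outside the members were not followed one by one. The members' median for the long-days note, 0.02, ran from -0.10 to 0.12 when each wild-type array was left out. The alternatives without the 3 arrays of high actin difference and with wild-type arrays 1 to 4 or 5 to 7 alone were chosen after seeing the data. The rule found 68 members with the filter at 5 (68 shared with the 75), 76 with no filter (75), 84 after median centring (70), 159 against the 3 controls that carry the long-days note (68), 114 against the 4 that do not (67), 189 against wild-type arrays 1 to 4 alone (71), 94 against wild-type arrays 5 to 7 alone (46) and 65 to 151 when each array was left out (127 without ngaquad array 1, 151 without miR-NGA array 2). All of these after the centring use fewer arrays, which alone makes full separation easier. Probe sets called between nga-deficient and wild-type arrays numbered 792, and 1932 with the replicate block, 256 with a covariate for the note, 516 with wild-type arrays 1 to 4 alone, 122 with wild-type arrays 5 to 7 alone, and 229 to 973 leaving out each array (416 without wild-type array 3, 337 and 311 without ngaquad arrays 1 and 2, 229 without miR-NGA array 1). Numbers of replicates are shared between groups, and the deviations of same-numbered arrays correlated at -0.27 to 0.29 in the pairs computed. Whether same-numbered arrays were paired is not given, and with 2 arrays a genotype these values cannot settle it. With the replicate block, where comparisons with wild type rest on wild-type arrays 1 and 2, the members' median difference was 0.98. For ngaquad against miR-NGA the count of 24 became 2 with the replicate block, 2 with the 4 arrays alone and 13 to 179 leaving out each array (14 and 179 without ngaquad arrays 1 and 2, 13 without miR-NGA array 2). Members called there numbered 0 with the replicate block, with the 4 arrays alone and with wild-type arrays 1 to 4 alone, 2 without the 3 arrays of high actin difference, and 0 to 1 leaving out each array. For the long-days note the count of 0 became 1 without those 3 arrays and 0 to 1 leaving out each wild-type array. The cause of these changes was not tested. Signals near the floor of the values limit what can be seen for dim members. Among these are AT2G30650, AT3G15720, AT5G21050, AT1G64380 and AT3G28420, whose lowest wild-type values lay below 4.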
